A study of Rattus norvegicus with 12 samples.

Results

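Leg muscle of Long-Evans rats, which are outbred, was profiled by bulk RNA-seq, and the comparison described here is between 2 codes in the leg table. The table has 6 of the 12 columns of the series, and these were chosen by their names: 3 carry leg muscle with the code ST and 3 carry leg muscle with the code WT. The labelled leg samples are 3 given an injection of magnetic fluid (MFIT) and 3 with no treatment or sham surgery (NT), and all 6 have the genotype written as WT (Long-Evans). The sources used here do not say which code stands for MFIT and which for NT, nor that the columns are these labelled libraries. A column is therefore treated as leg muscle and named by its code, every difference is given as ST minus WT, and no difference can be read as an effect of the fluid. Collection at 7 and 14 days after surgery is named for the series, but the day of each sample is not given. No age or sex of the animals is given. The labels call the samples biological replicates, but no column is tied to a sample. The p-values for genes therefore set each difference only against the spread between columns of a code, and that spread cannot be assigned to animals.

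Skeletal muscle fibres devote much of their messenger RNA to a small set of contractile proteins and metabolic enzymes. Blood vessels, nerve, connective tissue and resident immune cells contribute the rest of a bulk muscle sample. After surgery or around a foreign material, infiltrating leukocytes, fibroblast activation and fibre remodelling can all change that mixture. In bulk samples, fewer cells of a type and less RNA per cell cannot be told apart.

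All 56953 genes of the leg table carry mouse Ensembl identifiers, although the animals are rats. The files do not pair these identifiers with symbols, and 0 of them were found in the rat gene table used here, which lists no Ensembl identifiers. Gene groups for fibre type, inflammation, fibrosis, iron handling and cell types were therefore not analysed here, and the labelled tissue could not be checked against its markers. Genes are described below by level, direction and size of difference, and 4 of them by identifier.

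The leg columns held between 10551211 and 17016193 reads, of which between 55.97% and 61.2% were unmapped. Counts assigned to genes ran from 3466920 to 5814556 per column. Between 14422 and 15911 genes had at least 1 count. The unmapped share was 56.0%, 60.0% and 61.2% in ST columns 1, 2 and 3, and 56.4%, 56.2% and 57.7% in WT columns 1, 2 and 3. The groups overlapped, since ST column 1 lay below all WT columns and the other ST columns lay above them (difference 2.29 percentage points, exact two-sided permutation p = 0.40). No 2 of the 12 columns were identical.

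A few genes took a smaller share of the counts in the ST columns. The 100 genes with the most counts held 53.7%, 52.5% and 51.2% of gene counts in ST columns 1, 2 and 3, against 57.9%, 57.0% and 56.9% in WT columns 1, 2 and 3. The mean was 52.5% ± 1.25 (SD, n = 3) for ST and 57.2% ± 0.539 (SD, n = 3) for WT, and the codes did not overlap. The 10 genes with the most counts showed the same order, with 27.8% ± 0.781 in ST and 30.6% ± 0.536 in WT (SD, n = 3 each). TMM composition factors, which correct each library for genes that take up a large share of its reads, lay between 1.03 and 1.10 in ST and between 0.930 and 0.947 in WT. For these last 3 measures the exact two-sided permutation p was 0.10, the smallest that 3 columns against 3 can give, and 0.37 after Benjamini-Hochberg adjustment over 11 column measures compared.

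**Figure D1:**
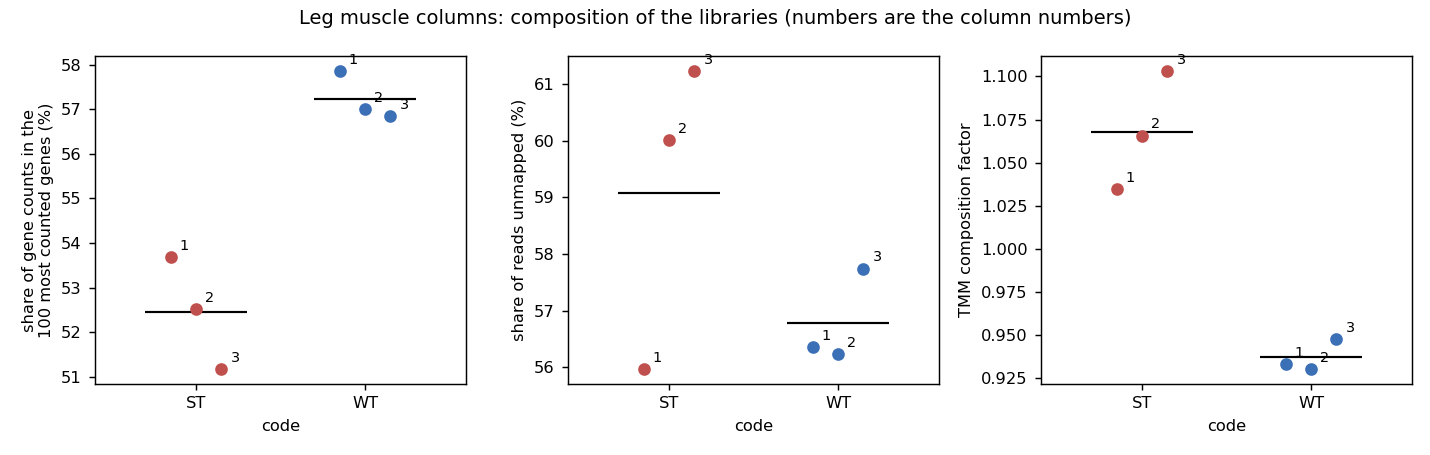
Share of gene counts in the 100 most counted genes (%), share of reads unmapped (%) and TMM composition factor (no unit) for each leg column, with ST and WT on the x axis, points numbered as the columns are and bars at the mean of 3 columns. The axes do not start at 0. The first and the last measure separate the codes, with ST between 51.2% and 53.7% against WT between 56.9% and 57.9% for the 100 genes, while the unmapped shares overlap.

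Among 9805 genes that passed the filter on low counts, 685 differed between ST and WT columns at an adjusted p under 0.05 (edgeR quasi-likelihood test, Benjamini-Hochberg adjustment over all genes tested), which is 6.99% of the genes tested. Of these, 260 were higher in ST (2.65%) and 425 were lower in ST (4.33%). The genes higher in ST had a median difference of 0.72 on the log2 scale and ranged from 0.26 to 3.42. The genes lower in ST had a smaller median size of 0.50, with sizes from 0.27 to 2.69. At least 2-fold differences were seen for 69 of the genes higher in ST and for 31 of those lower in ST. Across all genes tested, the median size of difference was 0.19 and the median signed difference was 0.01.

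The split into higher and lower genes depends on the scaling. With TMM factors 62.0% of the genes past the threshold were lower in ST. With library totals alone, which ignore the share taken by the most counted genes, 1415 genes passed, 1236 of them higher and 179 lower, so that 12.7% were lower. Under that scaling the median difference over all genes moved to 0.19 on the log2 scale, and each gene's difference is to be read against that shift.

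The columns of the 2 codes did not overlap in CPM (gene counts scaled to the library size after TMM) for 258 of the 260 genes higher in ST and for 421 of the 425 genes lower in ST. Among all genes tested, 25.6% had columns that did not overlap, in either direction. The genes past the threshold were called on these same columns, so their lack of overlap follows largely from the choice. It is no separate support for the calls. No gene past the threshold was at 0 counts in all 3 columns of the other code. Counts as low as 1, 6 and 6 in WT, for ENSMUSG00000110057.2, cannot tell a low level from absence.

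The genes that were lower in ST had more counts than those that were higher. The median level was 100.2 CPM for genes lower in ST, 21.9 CPM for genes higher in ST and 16.2 CPM for all genes tested. These levels are per gene and not per length, since the files give no gene lengths. Whether counting rat reads under mouse identifiers changes the level of some genes more than others was not tested. In the quintile of genes with the most counts, 264 of 1961 genes were lower in ST (13.5%) and 58 were higher (2.96%). In the quintile with the fewest counts the order was the opposite, with 16 lower (0.82%) and 36 higher (1.84%). Smaller differences could be called where counts were high: the smallest difference past the threshold was 0.26 on the log2 scale in the highest quintile and 0.92 in the lowest, so the quintiles are not equally sensitive.

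Of the 50 genes with the most counts, 29 were lower in ST and 0 were higher, and the other 21 did not pass the threshold. Their differences ran from -0.84 to 0.17 on the log2 scale, with a median of -0.33, and 46 of the 50 were negative. Under library totals 20 of the 50 were called lower, and in 1 fit of all 12 columns, where leg and back muscle share an estimate of the spread, 0 were. Of the 10 genes with the most counts, 9 were lower in ST. Of the 100 with the most counts, 49 were lower and 1 was higher. The smaller share of counts in these genes and their lower scaled levels are the same counts seen in different ways.

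**Figure D2:**
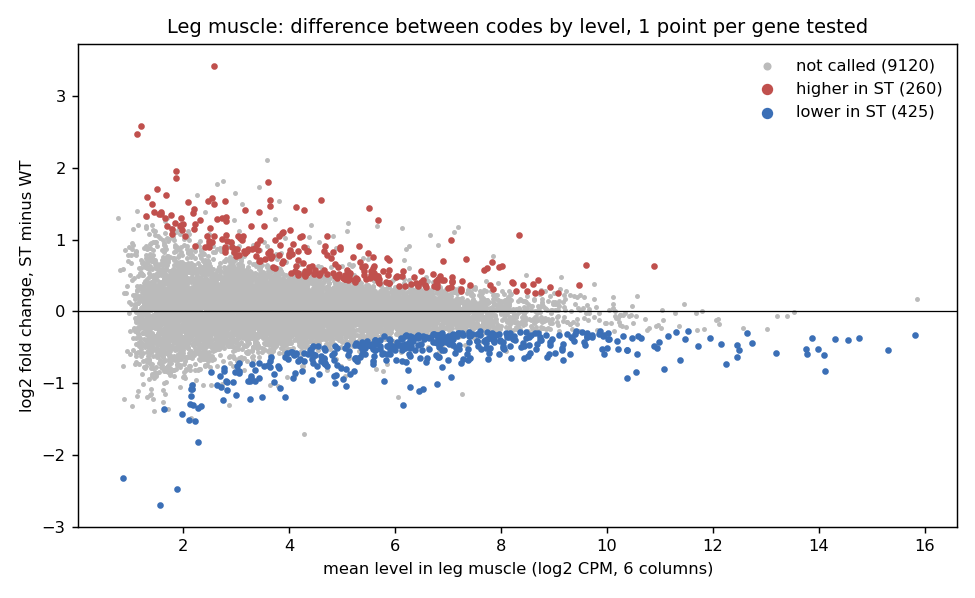
Each point is 1 of the 9805 genes tested in leg muscle, with its mean level over 6 columns (log2 CPM) on the x axis and its log2 fold change, ST minus WT, on the y axis. The 425 genes lower in ST (blue) extend to the highest levels, while the 260 genes higher in ST (red) lie mostly at lower levels and reach larger differences.

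The columns of each code resembled each other closely. Correlations of log2 CPM across genes lay between 0.983 and 0.986 among ST columns, between 0.977 and 0.982 among WT columns and between 0.966 and 0.984 across codes, so that the ranges overlap. The first principal component held 40.7% of the variance and separated the codes, with scores of 7.39, 18.7 and 23.5 for ST columns 1, 2 and 3 and of -21.9, -17.0 and -10.7 for WT columns 1, 2 and 3. ST column 1 was the ST column nearest to the WT columns. The second component held 21.7% and set WT columns 1 and 2 apart from each other. The biological coefficient of variation, edgeR's measure of the spread between columns of a code beyond counting error, was 0.0908 over the 6 leg columns.

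The number of genes past the threshold depended on the columns in the fit. In 1 fit of all 12 columns, with a spread shared between leg and back muscle, 9 genes passed for the leg difference, and 513 passed in that fit without back ST column 1. With leg columns alone it was 330 without ST column 2, 334 without ST column 3 and 728 without ST column 1, and between 525 and 758 without each WT column. Of the 685 genes, 248 passed the threshold in the same direction whichever of the 6 columns was left out, 73 of them higher and 175 lower in ST. These 248 had a median size of difference of 0.64 on the log2 scale and a median level of 87.5 CPM. They included 21 of the 50 genes with the most counts.

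The gene with the largest rise in ST was ENSMUSG00000110057.2. It had 13.9, 7.16 and 11.8 CPM in ST columns 1, 2 and 3 and 0.224, 1.81 and 1.19 CPM in WT columns 1, 2 and 3. All ST columns lay above all WT columns, with counts of 83, 27 and 45 against 1, 6 and 6. The difference was 3.42 ± 0.40 on the log2 scale (SE), or 10.7-fold (edgeR adjusted p = 2.99e-05). It was past the threshold whichever leg column was left out.

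ENSMUSG00000033981.15 had the next largest rise among called genes with a mean of at least 5 CPM in the higher code and no overlap. It had 2.34, 6.63 and 8.68 CPM in the ST columns in order and 1.12, 1.21 and 1.79 CPM in the WT columns. ST column 1 was only slightly above the highest WT column, with 14 counts, whereas ST columns 2 and 3 stood well above. The difference was 1.95 ± 0.49 on the log2 scale (SE; edgeR adjusted p = 0.0221). This call was lost without ST column 2 (adjusted p = 0.0819), ST column 3 (0.110), WT column 1 (0.0886) or WT column 2 (0.0747), with limma-voom (0.149) and in the fit of all 12 columns (0.180).

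The largest fall in ST was that of ENSMUSG00000024399.6. It had 0.334, 0.796 and 1.31 CPM in ST columns 1, 2 and 3 and 4.94, 6.33 and 3.98 CPM in the WT columns. The counts were 2, 3 and 5 in ST and 22, 21 and 20 in WT, so the codes did not overlap but the ST values rest on few reads. The difference was -2.69 ± 0.45 on the log2 scale (SE; edgeR adjusted p = 0.000455), and it passed whichever leg column was left out, but not in the fit of all 12 columns (adjusted p = 0.250).

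ENSMUSG00000094973.3 showed the next largest fall among genes that met the same rule. It had 1.34, 1.06 and 0.789 CPM in the ST columns in order and 8.08, 6.94 and 3.98 CPM in the WT columns, again without overlap. The counts were 8, 4 and 3 in ST and 36, 23 and 20 in WT, so its ST values also rest on few reads. The difference was -2.47 ± 0.39 on the log2 scale (SE; edgeR adjusted p = 0.000325). This gene too was past the threshold without any 1 of the leg columns.

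**Figure D3:**
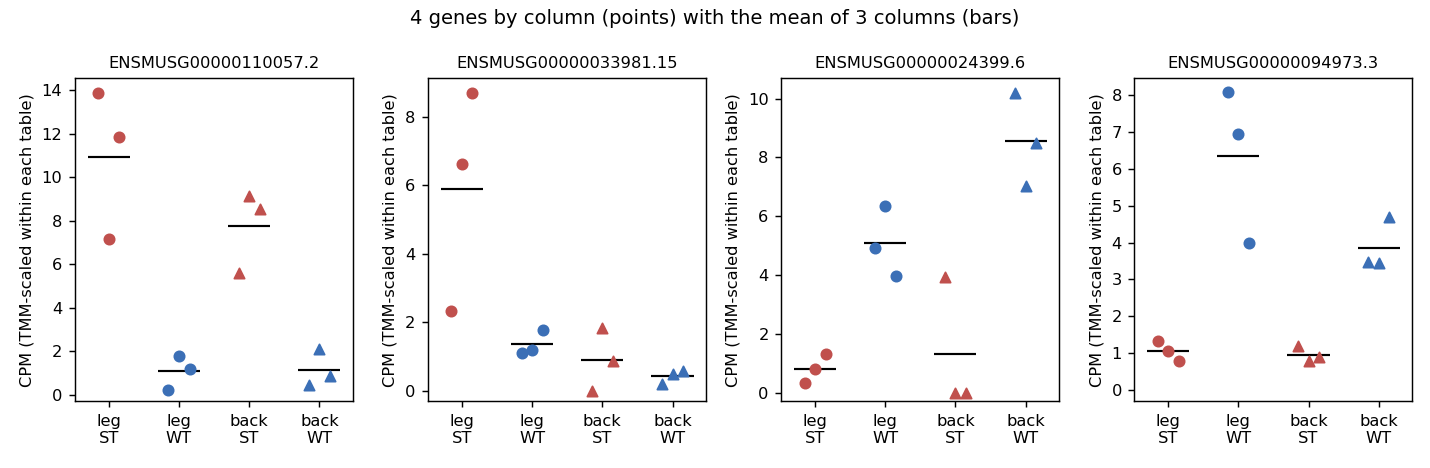
CPM of 4 genes in each column of leg muscle (circles) and back muscle (triangles), by code on the x axis, with bars at the mean of 3 columns, scaled within each table. In leg muscle the ST and WT columns of all 4 genes are separate, which the choice of these genes required. For ENSMUSG00000033981.15, ST column 1, at 2.34 CPM, is close to the highest WT column at 1.79 CPM.

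The same codes stand in the table of back muscle, whose 6 columns are separate libraries. Most genes that differed in leg muscle pointed the same way there. Of the 260 genes higher in leg ST, 219 were tested in back muscle and 187 of these (85.4%) had a positive difference, with a median of 0.53 on the log2 scale in back against 0.62 in leg. Of the 425 genes lower in leg ST, 422 were tested in back and 365 (86.5%) were negative, with a median of -0.41 in back against -0.49 in leg. Among all 9238 genes tested in both muscles, 62.0% had the same sign. The share for the called genes was between 82.5% and 86.4% when each back column was left out in turn. The sources used here do not say whether columns with the same code and number in the 2 tables come from the same animal.

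The back table by itself gave few calls. With all 6 back columns, 2 of 9466 genes (0.0211%) passed the threshold, both higher in ST and both also called higher in leg ST, and 1654 had an unadjusted p under 0.05. One back column decided this count: without back ST column 1 it was 2058, and without any other back column it was between 1 and 3. The biological coefficient of variation was 0.179 in back muscle with all columns and 0.117 without back ST column 1.

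Back ST column 1 stood nearer to the back WT columns than the other back ST columns did for the genes called in leg. The mean log2 CPM of the 219 genes higher in leg ST, less that of the 422 genes lower in leg ST, was -2.66, -1.59 and -1.77 in back ST columns 1, 2 and 3 and -3.04, -2.98 and -3.00 in back WT columns 1, 2 and 3. The codes did not overlap in back muscle. In leg muscle, where the genes were chosen, the values were -1.32, -1.13 and -0.94 for ST and -2.48, -2.39 and -2.29 for WT. The 100 most counted genes of the back table held 62.7% of gene counts in back ST column 1, within the range of 61.9% to 62.9% in back WT and above the 54.2% and 55.8% of back ST columns 2 and 3. What sets that column apart was not tested.

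**Figure D4:**
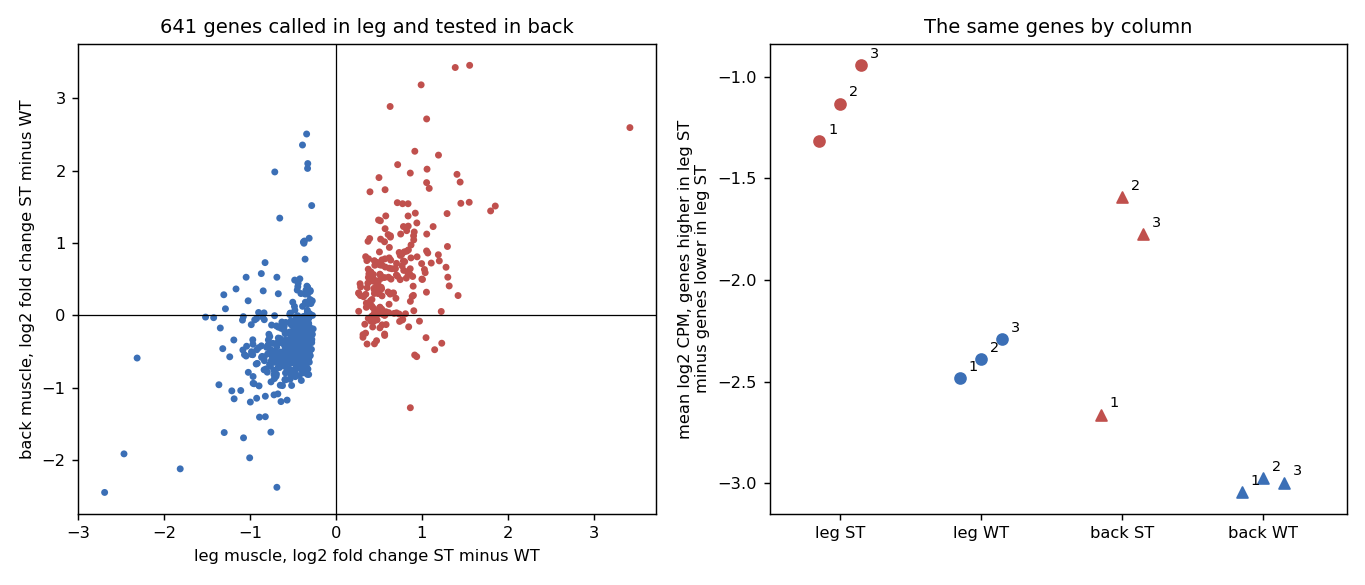
Left, the log2 fold change (ST minus WT) in leg muscle on the x axis and in back muscle on the y axis for 641 genes called in leg and tested in back, with genes higher in leg ST in red and lower in blue. Right, the mean log2 CPM of the genes higher in leg ST minus that of the genes lower in leg ST for each column, numbered as the columns are. Most points on the left share a sign, and on the right back ST column 1, at -2.66, lies closest to the back WT columns.

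A test of whether the difference between codes itself differed between leg and back muscle gave no gene past the threshold. Of 10450 genes tested, 0 passed (0%) and 1018 had an unadjusted p under 0.05 (edgeR interaction term; smallest adjusted p = 0.0790). DESeq2 called 59 genes for the same term, 21 of them among the genes called in leg. Without back ST column 1, edgeR called 662 of 10748 genes, 142 of them among the genes called in leg. The median standard error of the interaction was 0.30 on the log2 scale, against 0.18 for the leg difference alone, so the interaction was the less precise estimate. With all 12 columns, the calls in leg muscle are therefore not shown to be particular to leg muscle, and the count depends on back ST column 1.

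Of the 4 genes named above, 3 could be fitted in back muscle, each with the same direction as in leg muscle. ENSMUSG00000110057.2 had 5.60, 9.13 and 8.55 CPM in back ST columns 1, 2 and 3 and 0.433, 2.13 and 0.879 CPM in back WT, without overlap, and a difference of 2.59 ± 0.43 on the log2 scale (SE; edgeR adjusted p = 0.0801). ENSMUSG00000094973.3 had 1.21, 0.782 and 0.891 CPM in back ST and 3.47, 3.43 and 4.69 CPM in back WT, also without overlap, and a difference of -1.91 ± 0.37 (SE; edgeR adjusted p = 0.0971). Neither passed the threshold in back muscle. Among all genes tested in leg muscle, 25.6% had columns that did not overlap, and the share in back muscle is not given here.

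ENSMUSG00000024399.6 had 26 counts in back ST column 1 and 0 in back ST columns 2 and 3, against 47, 43 and 29 in back WT. In CPM it was at 3.94 in that ST column and at 10.2, 7.03 and 8.49 in back WT, and its difference of -2.44 ± 0.94 (SE) had an edgeR adjusted p of 0.267. ENSMUSG00000033981.15 had at most 7 counts in any back column and did not pass the low-count filter there. The interaction test between the muscles gave edgeR adjusted p-values between 0.786 and 0.976 for these 4 genes.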

How the data were processed

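The authors deposited raw counts per gene for 6 columns of each muscle, made with STAR and followed by DESeq2, per the submitters' processing notes, which state no version; build and annotation: not given in the sources used here. Libraries were prepared commercially from column-purified RNA and read from both ends, per the labels' protocols.

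The 4 rows of read classes, which name no gene, were left out of library sizes; in leg muscle they held between 55.97% and 61.2% (unmapped), 3.14% and 3.52% (multimapping), 0.207% and 0.260% (no feature) and 5.09% and 6.32% (ambiguous) of reads. Counts were fitted with edgeR 4.0.16 in R 4.3.3 (filterByExpr, TMM, robust quasi-likelihood test, adjusted p under 0.05), after the steps had been tested on simulated data. The SE of a log2 fold change is its size divided by the square root of F. CPM use TMM-scaled library sizes, and log2 CPM a prior count of 2. The back table was fitted alone and, for the interaction, with the leg table. Columns were taken as leg or back muscle by name, and 0 columns were left out for want of a match. DESeq2 1.42.0 and limma-voom (limma 3.58.1) were alternatives.

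The genes named are the 2 largest rises and 2 largest falls among genes past the threshold that met 2 conditions. These were a mean of at least 5 CPM in the higher code and no overlap between codes. The wider rule needed gene names. The comparison was chosen with earlier results of these data known. So were gene lists, which were not used for want of gene names. The precision of each value is limited by 3 columns per code and by 3466920 to 5814556 gene counts per column.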

Additional observations from a re-analysis of the deposited data

How the results depend on the processing

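Against 685 genes past the threshold in leg muscle (260 higher and 425 lower in ST), library totals gave 1415 (1236 higher, 179 lower) and 76.9% same-direction genes in back muscle. No filter gave 448 higher genes and 82.1% with the same direction, and DESeq2 gave 158 higher genes. A 2-fold minimum left 100 (69 and 31), and an adjusted p under 0.01 left 287 (86 and 201). One fit of all 12 columns, with a shared spread, gave 9 (5 and 4), 0 of the 50 most counted genes lower, and 100% with the same direction. Leaving out 1 back column in that fit, added after seeing the data, gave 513 genes without back ST column 1, 123 without back ST column 2, 33 without back ST column 3 and 8 or 9 without a back WT column. With the replicate number as a replicate block, 914 genes passed (382 higher and 532 lower), and 81.6% had the same direction. Same-numbered columns correlated at 0.03, 0.04 and -0.01 in their deviations from the mean of their code, and the other pairs ranged from -0.10 to 0.06. With 3 columns per code, these values cannot decide whether columns of the same number are paired. Without each leg column in turn, the counts were 330 to 758 in all, 107 to 321 higher and 216 to 459 lower, 22 to 32 of the 50 most counted genes were lower, and 78.2% to 90.4% had the same direction. The same-direction share over all genes tested in both muscles, 62.0%, is given only for the fit that called 685 genes. The shares under the other settings have no such value beside them.

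For the interaction with back muscle, DESeq2 gave 59 and no filter gave 188 genes; without each leg column in turn it was 0 to 3, and without each back column 0 to 662. The back comparison, added after seeing the data, gave 1 to 2058 without each back column. Removing mitochondrially encoded genes and the tests of gene lists were not run, for want of gene names. DESeq2 gave no adjusted p for the 4 named genes. A stricter filter, at least 5 CPM in at least 3 columns, kept ENSMUSG00000110057.2 (edgeR adjusted p = 8.63e-05) but none of the other named genes. For ENSMUSG00000024399.6 and ENSMUSG00000033981.15 the call was lost in the fit of all 12 columns (adjusted p = 0.250 and 0.180). Depth limits the named genes, which had under 100 counts in every leg column.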
